A study of Mus musculus with 6 samples.

Results

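The 8 genes described here encode enzymes of cholesterol synthesis: Hmgcs1, Mvd, Idi1, Fdft1, Sqle, Lss, Cyp51 and Dhcr7. They were chosen by name, and every probe set whose platform gene symbol was exactly one of these was taken. That gave 21 probe sets, of 45037 on the array other than controls, and all 8 genes were among the 12044 genes tested.

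Messenger RNA was measured on 6 microarrays of cells sorted from the ventral mesencephalon, the floor of the embryonic midbrain, of mice at embryonic day 12.5. Ngn2-GFP positive cells (3 arrays, strain CD1/129) carried a GFP reporter of Neurog2, a proneural transcription factor, and were sorted for GFP. Lmx1a-GFP negative cells (3 arrays, strain C57BL/6) came from mice with a GFP reporter of Lmx1a, which specifies dopaminergic progenitors, and were sorted for the absence of GFP. Per the series' design text the replicates are biological, the first population contains nearly all midbrain dopaminergic progenitors, and the second is a non-dopaminergic reference. Sorting on absence of GFP keeps every GFP-negative cell of the tissue, blood cells included. Strain, mouse line and sort gate coincide with the group on every array and cannot be told apart.

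Cells make cholesterol from acetyl-CoA in a long chain of reactions. The first enzymes lead through mevalonate to the isoprenoid building blocks, the next join these to squalene and close it into the first sterol, lanosterol, and the last trim lanosterol to cholesterol. The transcription factor SREBP-2 (Srebf2) drives the genes of the whole chain when sterols in the endoplasmic reticulum run low, binding sterol regulatory elements together with the CCAAT-binding factor NF-Y. In the embryonic brain cholesterol is made locally once the blood-brain barrier forms, and it serves the membranes of dividing progenitors and growing axons, the lipid modification of Sonic hedgehog and the making of oxysterols that act on LXR receptors.

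By their brightest probe sets, Hmgcs1, Idi1 and Cyp51 had signals that went up and down together over the arrays, while Lss went the other way. The promoters of these 4 enzymes are shown for that pattern, which is described further on. Each is 300 bases, from 250 before to 50 after a transcript start of RefSeq (build GRCm38.p6), written 5′ to 3′ on the gene's strand. Capitals mark matches on either strand to the sterol regulatory element TCACNCCAC or to the CCAAT box, which reads ATTGG when it lies on the other strand.
Hmgcs1, chr13:119690101-119690400, plus strand: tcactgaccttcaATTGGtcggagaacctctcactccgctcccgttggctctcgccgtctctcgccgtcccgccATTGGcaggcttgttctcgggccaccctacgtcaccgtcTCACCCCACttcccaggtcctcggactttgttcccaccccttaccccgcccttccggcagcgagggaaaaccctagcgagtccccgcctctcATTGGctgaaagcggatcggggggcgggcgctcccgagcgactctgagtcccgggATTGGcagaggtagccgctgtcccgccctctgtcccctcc
Idi1, chr13:8885356-8885655, plus strand: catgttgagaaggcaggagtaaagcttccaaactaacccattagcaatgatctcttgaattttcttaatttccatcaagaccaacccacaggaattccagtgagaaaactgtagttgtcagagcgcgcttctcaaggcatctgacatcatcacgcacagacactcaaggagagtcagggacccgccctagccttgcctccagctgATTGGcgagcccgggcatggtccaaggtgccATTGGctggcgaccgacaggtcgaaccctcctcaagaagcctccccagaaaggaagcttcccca
Cyp51, chr5:4104648-4104947, minus strand: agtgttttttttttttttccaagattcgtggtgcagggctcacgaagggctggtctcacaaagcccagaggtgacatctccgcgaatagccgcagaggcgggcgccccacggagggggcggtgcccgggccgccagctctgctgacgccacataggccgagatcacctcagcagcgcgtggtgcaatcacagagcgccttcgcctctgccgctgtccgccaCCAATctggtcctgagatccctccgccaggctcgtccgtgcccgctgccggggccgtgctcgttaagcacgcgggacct
Lss, chr10:76531355-76531654, plus strand: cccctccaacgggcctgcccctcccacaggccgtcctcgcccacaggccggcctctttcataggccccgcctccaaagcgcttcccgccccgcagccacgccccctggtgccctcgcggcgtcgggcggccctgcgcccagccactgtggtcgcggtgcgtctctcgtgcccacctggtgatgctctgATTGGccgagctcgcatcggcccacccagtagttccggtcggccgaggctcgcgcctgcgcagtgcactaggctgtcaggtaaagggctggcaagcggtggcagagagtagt
The table of promoters held 6 of the 8 genes, in 8 windows, with Fdft1 and Sqle not analysed here. The letters of the sterol regulatory element were in 1 of these windows, that of Hmgcs1, where they began 137 bases before the start, and in 1.24% of 32851 promoter windows of the same length. At least 1 CCAAT box was in 6 of the 8 windows, 1 for each of the 6 genes, and in 37.4% of all windows, and Hmgcs1 had 4 of them. These are matches of letters and do not show that a factor binds there, and a link between them and the signals was not tested.

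Genes of dopamine neurons were higher in the positive cells. Of 10 tested midbrain dopaminergic markers, 7 were higher in positive cells and none lower, against 1.06% of all 12044 genes that passed in either direction. Lmx1a is among the 7, and its direction follows from the sort, which kept cells without its reporter as the reference. Lmx1a and Slc6a3 passed the filter for dim probe sets only through the 3 positive arrays, where they were high. Pitx3 missed the filter. Th, the rate-limiting enzyme of dopamine synthesis, had signals between 118 and 214 on the positive arrays and between 1.44 and 12.2 on the negative ones. Neurog2 itself had 500.4 to 706 on the positive arrays and 334 to 388 on the negative ones, without overlap, and its difference of 0.75 (SE 0.21) was not called (limma, Benjamini-Hochberg adjusted p = 0.155). The negative arrays also held more blood cell RNA. All 5 tested erythroid markers were higher there, with a summed signal over the list of 7512 to 14931 against 318 to 633 on positive arrays, as were 4 of 7 tested microglia and macrophage markers (416 to 828 against 80.4 to 99.1), and the part of these cells in the values that follow was not tested. Of these markers, Hba-x, Hbb-bh1, Csf1r, Aif1 and Tyrobp passed the filter for dim probe sets only through the 3 negative arrays, where they were high. Hbb-y and Slc4a1 passed it on all 6 arrays. Both erythroid markers that missed it, Hba-a1 and Epor, had overlapping groups, as had Mrc1 of the microglial list. Cx3cr1 and C1qa of that list missed it too, with every negative value above every positive one. None of 7 endothelial markers passed the filter for dim probe sets. Of 8 tested markers of GABAergic neurons 6 were lower in positive cells (summed signal 2457 to 2682 against 5930 to 6191), and of 12 tested markers of radial glia and progenitors 2 were lower, Fabp7 and Pax6. The positive arrays fell into a technical split. Replicates 1 and 2 had hybridization spike-in signals of 2293 and 2352 and 18S ribosomal RNA signals of 3713 and 3696, whereas positive replicate 3 and the negative arrays had 4254 to 6560 and 7241 to 9276. The name spike-in batch stands for this split, whose lower side holds positive arrays alone. With a block for it, 1 of the 10 dopaminergic markers passed (Nr4a2) with all 10 at positive values, as did 4 of 5 erythroid, 2 of 7 microglial, 4 of 8 GABAergic and 1 of 12 radial glial markers at lower values, beside 0.282% of all genes.

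None of the 8 enzymes passed the test for a difference between the populations. They are given by their brightest probe set, as MAS5 signals on a linear scale that sets every array to the same trimmed mean of 100, and differences are log2 values, those of positive minus those of negative arrays. The standard error (SE), 95% interval and Benjamini-Hochberg adjusted p come from limma over all 12044 genes. At an adjusted p under 0.05, 0 of 8 passed, beside 1.06% of all genes tested (0.423% higher and 0.639% lower in positive cells), and at an unadjusted p under 0.05 there was 1, Hmgcs1, beside 10.8%. The groups overlapped for all 8, while they did not for 15.5% of all genes. All 8 lay above the 40th percentile of the array on all 6 arrays, so none was lost to a dim signal. Their median difference was -0.15, with 6 at negative values, and over all genes the median was 0.03 with 47.7% at negative values. With a block for the spike-in batch the median of the 8 was -0.05, with 1 at a positive value. In sorted cells a difference in the share of cells that use a gene and a difference in RNA per cell cannot be told apart.

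**Figure D1:**
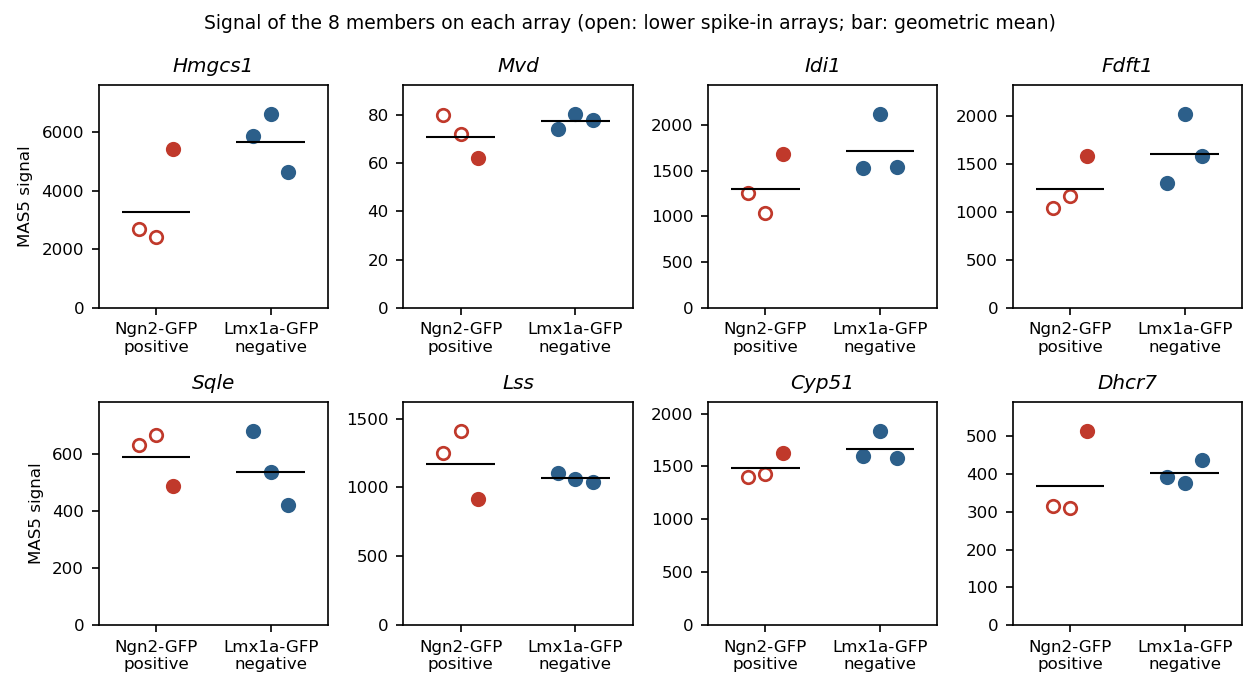
Each panel plots the MAS5 signal (linear axis from 0) of one enzyme on the 3 Ngn2-GFP positive and 3 Lmx1a-GFP negative arrays. Points are arrays, bars are geometric means and open points are the 2 arrays with low spike-in signals. The groups overlap in every panel, and positive replicate 3, the filled red point, stands apart from both open points.

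Among the brightest probe sets, the mevalonate arm held the lowest value, that of Hmgcs1, whose other probe sets, described further on, gave -0.42 to 1.51. Hmgcs1, which makes HMG-CoA, had signals of 2695, 2433 and 5419 on positive replicates 1, 2 and 3 and of 5855, 6635 and 4642 on the negative ones. Positive replicates 1 and 2 were the lowest of the 6 arrays, and positive replicate 3 lay inside the negative range. The difference was -0.78 (SE 0.31, 95% interval -1.45 to -0.11, n = 3 per group), which limma did not call after adjustment over all genes (adjusted p = 0.375). With a block for the spike-in batch, a fit in which positive replicate 3 alone stands for the positive group, it was -0.06 (SE 0.21, adjusted p = 0.996). Without positive replicate 3 it was -1.14 and passed (adjusted p = 0.00518), as 3.55% of genes did in that fit, where batch and group cannot be told apart. Leaving out any other array gave -0.92 to -0.56 without a call, and after quantile normalization of the 6 arrays it was -0.21 (SE 0.12). None of the 8 enzymes passed with the batch as a block, nor on its higher side alone, where 0.354% of genes did.

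Mvd, which decarboxylates mevalonate diphosphate, was the dimmest of the 8 at 80.0, 72.0 and 61.9 on positive and 74.3, 80.5 and 78.0 on negative arrays. The values of the groups were interleaved, with a difference of -0.13 (SE 0.28, interval -0.73 to 0.47). Idi1, the isomerase that makes dimethylallyl diphosphate, had 1259, 1039 and 1686 on positive and 1531, 2126 and 1547 on negative arrays. As for Hmgcs1, the first 2 positive arrays were the lowest of all and the third lay inside the negative range, and the difference was -0.40 (SE 0.24, interval -0.91 to 0.12, adjusted p = 0.567) or -0.02 with the batch as a block.

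The enzymes that make squalene and lanosterol had values on both sides of 0. Fdft1, squalene synthase, had 1039, 1160.1 and 1582 on positive and 1299.8, 2020.5 and 1575 on negative arrays, a difference of -0.37 (SE 0.24, interval -0.89 to 0.14) that was -0.02 with the batch as a block. Here too positive replicates 1 and 2 were the lowest of the 6 arrays. Sqle, squalene epoxidase and a rate-limiting step of the pathway, had 629, 665 and 486 on positive and 680.0, 538 and 419 on negative arrays. Its groups covered nearly the same range, and the difference was 0.14 (SE 0.23, interval -0.36 to 0.63). Lss, lanosterol synthase, had 1247, 1411 and 914 on positive arrays and a narrow 1108, 1059 and 1036 on negative ones. Positive replicates 1 and 2 were the highest of the 6 arrays and positive replicate 3 the lowest. The difference was 0.13 (SE 0.21, interval -0.33 to 0.60), and with the batch as a block it was -0.22.

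The 2 enzymes that act after lanosterol were close in both groups. Cyp51, the sterol 14-demethylase, had 1402, 1424 and 1629 on positive and 1602, 1837 and 1582 on negative arrays, with the narrowest interval of the 8 enzymes (difference -0.17, SE 0.20, interval -0.60 to 0.26). Dhcr7, which makes cholesterol from 7-dehydrocholesterol and is mutated in Smith-Lemli-Opitz syndrome, had 315, 310.1 and 515 on positive and 393, 377.0 and 438 on negative arrays. Positive replicate 3 was the highest of all 6 arrays and the other 2 positive arrays the lowest, for a difference of -0.12 (SE 0.23, interval -0.63 to 0.38) that was 0.36 with the batch as a block. Apart from Hmgcs1, whose interval reached -1.45, the intervals of the brightest probe sets exclude a 2-fold difference in either direction. They do not show that the groups are equal, and with a block for the batch that of Mvd reached from -1.17 to 0.52.

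**Figure D2:**
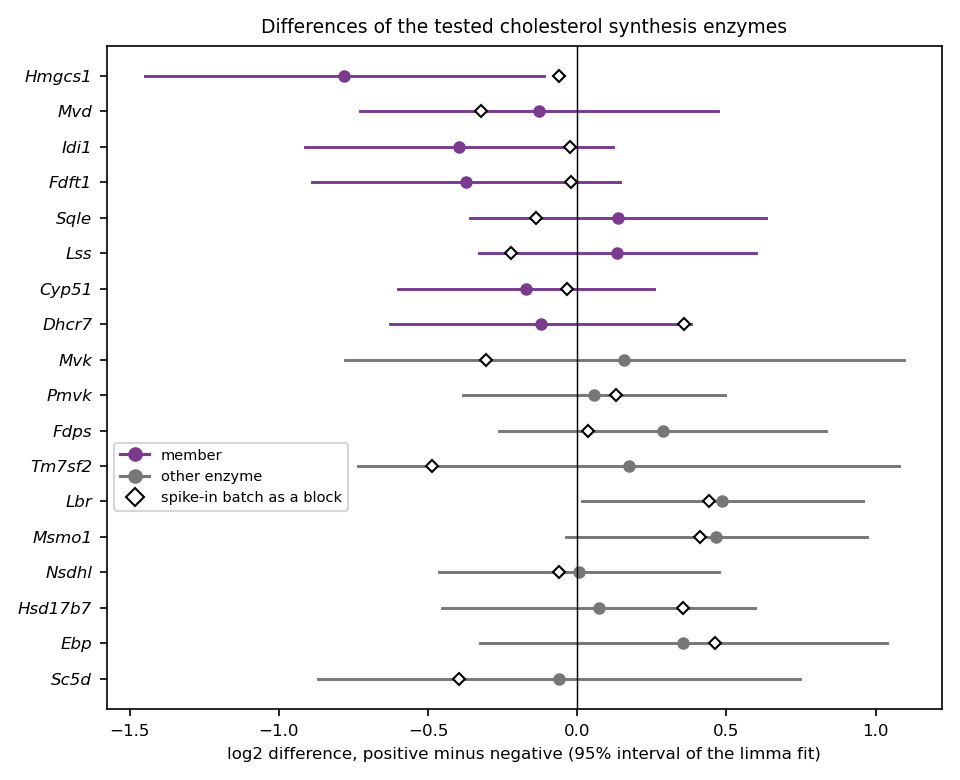
Points are log2 differences (positive minus negative) of the 18 tested enzymes of cholesterol synthesis with the 95% interval of the limma fit, the 8 members in purple and 10 further enzymes in grey. Open diamonds are from the fit with a block for the spike-in batch. The Hmgcs1 point at -0.78 has its diamond at -0.06.

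Over the arrays the 8 enzymes did not move as one. Each was centred on its own mean log2 signal over the 6 arrays. Hmgcs1 stood at -0.68 and -0.82 on positive replicates 1 and 2, 0.33 on positive replicate 3 and 0.11 to 0.62 on negative arrays. Idi1 stood at -0.25, -0.52 and 0.17 on the positive arrays and Cyp51 at -0.17, -0.14 and 0.05, the same order of positive replicate 3 above the other 2. Lss was reversed, at 0.16, 0.34 and -0.29. On both positive arrays with low spike-in signals, 5 enzymes (Hmgcs1, Idi1, Fdft1, Cyp51 and Dhcr7) were below positive replicate 3 and 3 (Mvd, Sqle and Lss) above it. Of all genes tested, 77.6% likewise had both of these arrays on one side of positive replicate 3, and 36.6% had both below it. A mean drop of at least 2-fold from positive replicate 3 to these arrays was seen in 4.48% of genes and in 1 of the 8 enzymes, Hmgcs1 (-1.08). The ratio of 3' to 5' signal of a gene rises as the labelled RNA gets shorter. For Gapdh it was 4.41 and 4.73 on these 2 arrays and 5.94 to 9.21 on the other 4. For actin it went the other way, with 1.162 and 1.146 on these 2 arrays and 0.969 to 1.137 on the other 4. The part of either ratio in the values was not tested.

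**Figure D3:**
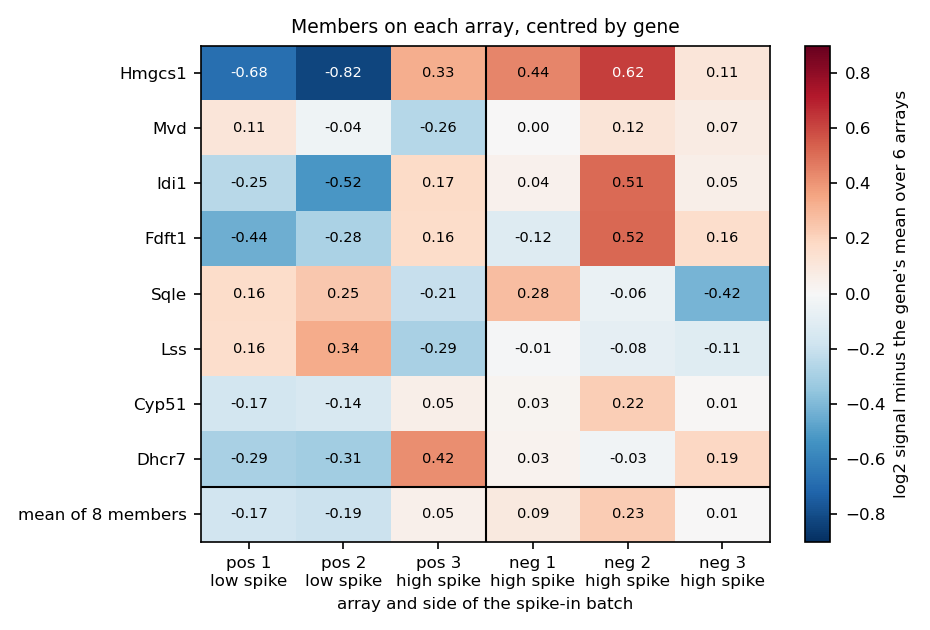
Cells give the log2 signal of each enzyme minus its mean over the 6 arrays, with positive (pos) and negative (neg) arrays in columns, the side of the spike-in batch under each, and the mean of the 8 enzymes in the last row. Hmgcs1 has the lowest cells (-0.68 and -0.82), and Lss has the opposite sign on the same arrays.

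The mean of the 8 centred values was -0.17 and -0.19 on positive replicates 1 and 2, 0.05 on positive replicate 3 and 0.01 to 0.23 on negative arrays. The median centred value of all tested genes stayed between 0.0004 and 0.05, but a median of so many genes moves less than the mean of the 8 enzymes can. Cyp51 (Pearson r = 0.98), Hmgcs1 (0.97) and Idi1 (0.95) followed this mean most closely over the 6 arrays, and Lss (-0.71) and Sqle (-0.35) ran against it. Each enzyme is itself part of this mean, and Hmgcs1, with the widest spread, weighs most in it. The 5 other genes with the highest correlation to it were Zc3h14, Rnps1, Fbxw11, 3300002I08Rik and Prkar1a, a regulatory subunit of protein kinase A, with r of 0.989 to 0.997 over 6 arrays. For Zc3h14, which encodes a zinc finger protein that binds poly(A), the signals were 380, 365 and 524 on positive and 542, 674 and 469 on negative arrays. None of the 5 passed (adjusted p = 0.417 to 0.877), except that Rnps1 did without positive replicate 3 (-0.96, adjusted p = 0.0249). A correlation above 0.9 was reached by 469 of 11970 genes, and all points share the arrays and their spike-in split.

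Different probe sets of an enzyme gave different answers. Of 20 tested member probe sets none passed, beside 0.537% of all 27738 tested, with 9 at positive and 11 at negative values, and 2 had an unadjusted p under 0.05, both of Hmgcs1, beside 9.43%. There were 6 enzymes with more than 1 tested probe set, and in 5 of them the probe sets had both signs, as in 55.4% of all genes with more than 1. Hmgcs1 had 5 probe sets. Its brightest, 1433443_a_at, gave -0.78, and 1433444_at and 1433445_x_at followed it over the arrays (r = 0.96 and 0.93) at smaller differences of -0.42 and -0.29. The fourth, 1433446_at, had 1065, 1172 and 1242 on positive and 1309, 1138 and 941 on negative arrays, a difference of 0.05 (SE 0.21). These 4 carry the same sequence record in the platform annotation.

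The fifth Hmgcs1 probe set, 1441536_at, stems from another record and went the other way. Its signals were 67.4, 106 and 44.9 on positive and 28.5, 24.5 and 20.0 on negative arrays, so every positive value lay above every negative one. The difference was 1.51 (SE 0.41, n = 3 per group), or 2.85-fold, with an unadjusted p of 0.00299 that did not pass limma's adjustment over all probe sets (adjusted p = 0.209), and with a block for the spike-in batch it was 0.90. It ran against the brightest probe set over the 6 arrays (r = -0.84). Where in the transcript each probe set lies was not analysed here.

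Groups did not overlap for 2 more probe sets, both higher in positive cells. For Mvd, 1417303_at had 33.8, 49.2 and 32.5 against 17.4, 28.0 and 24.7, a difference of 0.72 (SE 0.44, adjusted p = 0.64), while its brighter probe set gave -0.13. For Cyp51, 1422534_at had 176, 185 and 191 against 117, 137 and 166, a difference of 0.41 (SE 0.24, adjusted p = 0.627), while its 2 brighter probe sets gave -0.17 and 0.01. In all, groups did not overlap for 3 of 20 member probe sets, each higher in positive cells, beside 7.96% of all tested that were higher in this way and 13.9% in either direction. Fdft1 had -0.37 by 1438322_x_at, whose suffix marks probes shared with other sequences, and 0.04 by 1448130_at, and the 2 ran against each other (r = -0.79). With the brightest probe set of its gene, 1417303_at of Mvd had r = -0.21 and 1422534_at of Cyp51 had r = -0.51. The 2 probe sets of Idi1 had the same sign, at -0.40 and -0.37 with r = 0.94. The 2 brighter ones of Lss gave 0.13 and 0.18 with r = 0.97. The third of Lss, 1426913_at, gave -0.26 and followed them little (r = 0.24 and 0.12). The 2 dimmest probe sets of Fdft1 had signals of at most 20.3, and 1 of them missed the filter.

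**Figure D4:**
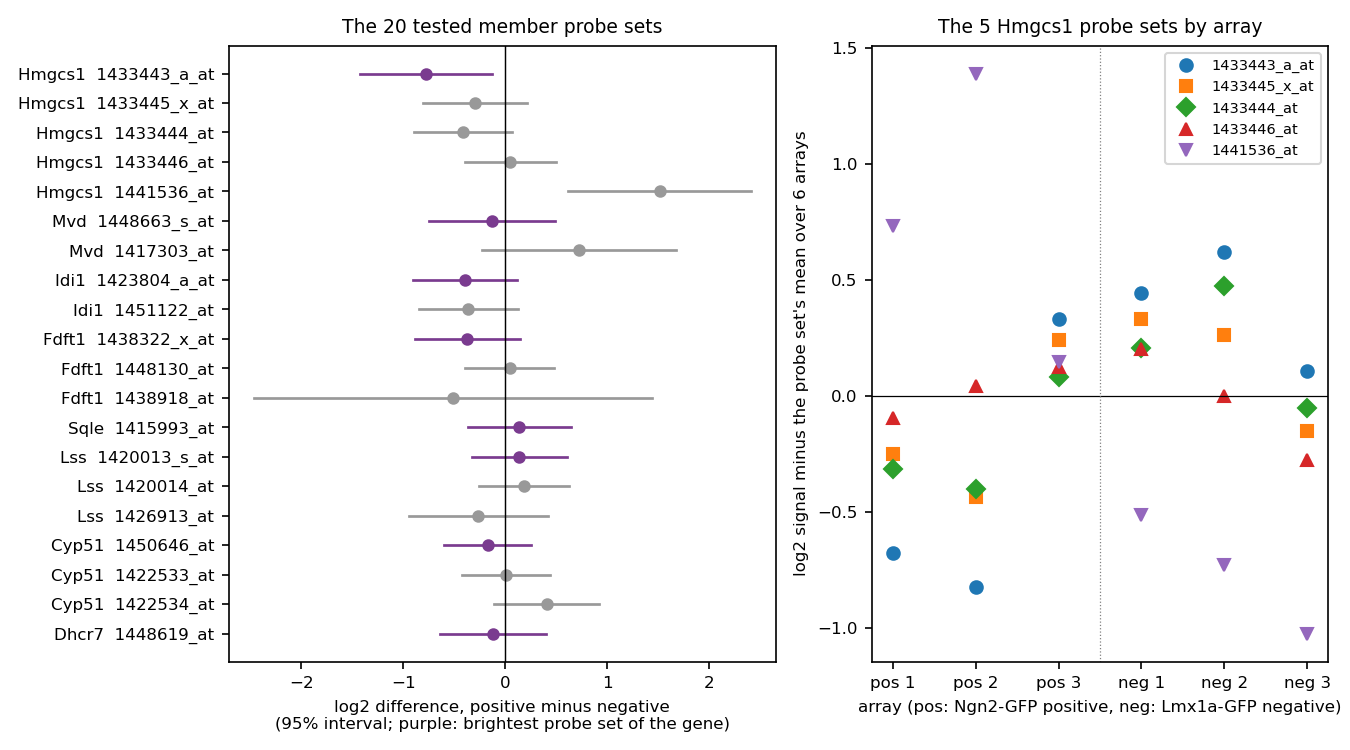
The left panel gives the log2 difference (positive minus negative) of the 20 tested member probe sets with its 95% interval, with the brightest of each gene in purple. The right panel plots the 5 Hmgcs1 probe sets on each array as log2 signal minus the probe set's own mean, where 1441536_at is high and 1433443_a_at low on positive replicates 1 and 2.

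By their brightest probe sets, other enzymes of the same chain were mostly at small positive values. Of 14 listed, 10 were tested, Idi2 was dim and 3 were not analysed here. None passed, 9 of 10 were at positive values, and their median was 0.17 beside 0.03 over all genes. In the mevalonate arm Mvk, mevalonate kinase, differed by 0.16 (SE 0.43), Pmvk, the next kinase, by 0.06 (SE 0.20) and Fdps, farnesyl diphosphate synthase, by 0.29 (SE 0.25). Among those acting on sterols, Lbr, which is both a sterol 14-reductase and a nuclear lamina protein, had 266, 245 and 244 on positive and 160, 168 and 216 on negative arrays. Its groups did not overlap, with a difference of 0.49 (SE 0.22, adjusted p = 0.449). Msmo1, the sterol 4-methyl oxidase, had 223, 199.9 and 199.6 against 188, 126 and 143, also without overlap (0.47, SE 0.23, adjusted p = 0.49). Without probe sets whose names end in _s_at, _x_at or _a_at, Msmo1 was at 0.13 (SE 0.44). Ebp, the sterol isomerase, was the third without overlap, at 58.3, 56.8 and 64.2 against 47.6, 40.3 and 52.9 (0.36, SE 0.32, adjusted p = 0.707). Over all genes tested, the groups did not overlap for 15.5%. Some of these signs depended on the probe set. With the probe sets of a gene averaged, Mvk was at -0.19, Hsd17b7 at -0.06, Sc5d at 0.49 and Msmo1 at 0.30, none of them called.

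With a block for the spike-in batch 6 of the 10 were at positive values and their median was 0.08. Lbr was then at 0.44, Msmo1 at 0.41 and Ebp at 0.46, whereas Fdps was at 0.03 and Mvk, Tm7sf2 and Nsdhl turned negative, at -0.30, -0.49 and -0.06. The remaining enzymes lay between -0.06 and 0.17. Tm7sf2, a second sterol 14-reductase, differed by 0.17 (SE 0.42), Hsd17b7 by 0.07 (SE 0.24), the 4-demethylation enzyme Nsdhl by 0.01 (SE 0.22) and the lathosterol desaturase Sc5d by -0.06 (SE 0.37). Over all 18 tested enzymes of the chain, 0 passed, beside 1.06% of all genes, and 11 were at positive and 7 at negative values. The groups did not overlap for 3 of the 18, a share near the 15.5% of all genes. The median of the 18 was 0.06, or -0.03 with the batch as a block.

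Regulators and neighbouring branches held no gene past the threshold either. Of 15 tested regulators of SREBP none passed, with a median of -0.07. Insig1, the membrane protein that holds SREBP in the endoplasmic reticulum and is itself an SREBP target, had 1042, 1075 and 1197 on positive and 699, 962 and 1038 on negative arrays, just without overlap (0.31, SE 0.21, adjusted p = 0.612). Pgrmc1, a heme protein that binds Insig1 and Cyp51, differed by 0.10 (SE 0.21). The following were picked after their values were seen. Srebf2 had 312, 319 and 350.1 on positive and 274, 248 and 305 on negative arrays, a difference of 0.25 (SE 0.20, adjusted p = 0.673). Srebf1, which drives fatty acid synthesis more, was at -0.07 (SE 0.40).

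Of 9 tested genes of sterol uptake and transport none passed, with a median of -0.05. Lrp8, the ApoE receptor 2 that also receives Reelin, had 467, 471 and 508 on positive and 348, 326 and 267 on negative arrays. All positive values lay above all negative ones, and the difference of 0.63 (SE 0.20, unadjusted p = 0.00778) had an adjusted p of 0.242. Npc2, which moves cholesterol out of lysosomes, differed by -0.25 (SE 0.20). Stard3, a sterol transfer protein of endosomes picked after its values were seen, had 47.4, 50.7 and 38.6 on positive and 75.9, 90.6 and 73.3 on negative arrays, at -0.81 (SE 0.30, adjusted p = 0.343). Of 9 tested genes of efflux, esterification and LXR response none passed (median -0.35). The transporters Abcg1 and Abca1 differed by -0.35 (SE 0.28) and -0.48 (SE 0.41). Apoe, the lipid carrier of glia and macrophages, was picked after its values were seen and had dim signals, at most 14.6 on a positive and 55.5 on a negative array.

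Fatty acid synthesis, which SREBP also drives, had 0 of 13 tested genes past the threshold (median -0.06, or 0.06 with a block for the spike-in batch). Acly, which makes the acetyl-CoA that both pathways use, had 1870.1, 1798 and 2557 on positive and 2603, 3684 and 2624 on negative arrays, without overlap (-0.52, SE 0.24, adjusted p = 0.462), and was at -0.20 with a block for the spike-in batch. Scd2, the stearoyl-CoA desaturase of the brain, differed by -0.23 (SE 0.21). Of 10 tested genes of the isoprenoid branches none passed (median 0.27, or -0.05 with that block), with Fnta, a subunit of protein farnesyltransferase, at 0.22 (SE 0.20) and Rabggtb at 0.43 (SE 0.23).

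**Figure D5:**
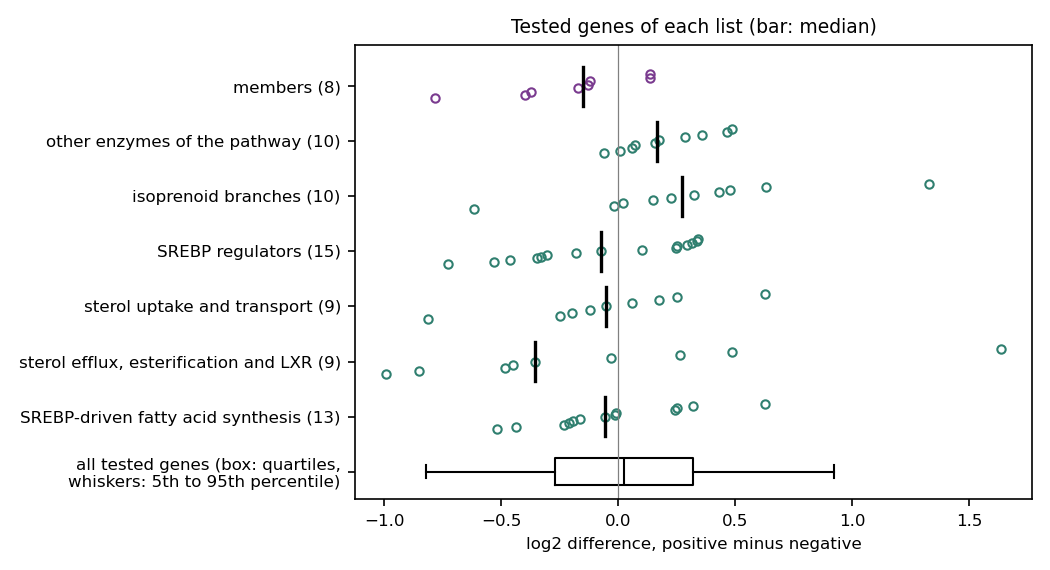
Open points are the log2 differences (positive minus negative) of the tested genes of each list, with their number in parentheses and the median as a bar. The box at the bottom gives the quartiles of all 12044 tested genes, with whiskers from the 5th to the 95th percentile. Members have a median of -0.15 and the other enzymes of 0.17. With a block for the spike-in batch, which is not drawn, these medians are -0.05 and 0.08.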

How the data were processed

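Total RNA of sorted cells was labelled with biotin and hybridized to 1 array per sample, per the labels' protocols. The authors deposited a table of intensity values, and the submitters' processing notes name MAS5, R 2.14.2 and, with no stated use, limma. MAS5 scales arrays to a common level, and each has a trimmed mean (2% at either end) of 100, so total RNA per cell is not measured. Of 45037 non-control probe sets, 34945 carried 1 symbol in the platform annotation. Signals were raised to at least 1 before taking log2. Probe sets above the 40th percentile of the array on at least 3 arrays were tested (27738), and the brightest represented its gene (12044 genes).

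The populations were then set against each other by limma 3.58.1, run under R 4.3.3 (lmFit, eBayes with trend, two-sided, 4 residual degrees of freedom, Benjamini-Hochberg over all tested genes, threshold 0.05). The fit was also run on simulated data with independent noise on each array and no spike-in split, so that run does not cover the split. The number of arrays limits the precision. The spike-in batch was set by the largest gap in the spike-in signals. Named were all members, all other enzymes of the chain, of each other pathway list any called gene (its 2 brightest where none was called), and the 5 genes most like the members' mean. The members, lists and alternatives were chosen with earlier results of these data known. Figures were drawn with matplotlib 3.10.9.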

Additional observations from a re-analysis of the deposited data

How the results depend on the processing

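The count of 0 among the 8 enzymes, and of 0 among the 18 tested enzymes of the chain, held under quantile normalization, median centring, a filter raised to the 60th percentile or dropped, 32 added before the log, probe sets averaged by gene, suffixed (_s_at, _x_at and _a_at) probe sets removed, every probe set tested by itself, eBayes with no trend, the replicate block, the spike-in batch as a block and the higher side of that batch alone. Over the whole array these settings called 19 to 153 genes or probe sets, so few that 0 among 8 or 18 enzymes was likely in any case. Leaving out 1 array gave 0 to 1 for both counts, the 1 being Hmgcs1 without positive replicate 3. The count of 128 genes over the whole array was 19 with no filter, 42 without a trend, 34 with the batch as a block, 40 on its higher side alone and 57 to 417 with 1 array left out. Same-numbered arrays of the groups deviated together at r = 0.14, -0.10 and 0.03. These values give no sign of pairing by number, but with 3 arrays per group they cannot exclude it. The replicate block gave 127 genes and 0 enzymes.

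Over all settings 14 of 136 differences of the 8 enzymes changed sign, none of them with a call. The changed filters, the missing trend and the replicate block left these differences as they were. The batch as a block and its higher side alone gave the same differences as each other. The 136 values are therefore not separate checks of the sign. With the batch as a block and on its higher side alone, Sqle was at -0.14, Lss at -0.22 and Dhcr7 at 0.36. The mean of the probe sets put Hmgcs1 at 0.013, Mvd at 0.30 and Cyp51 at 0.080, and leaving out the suffixed probe sets put Mvd at 0.72 and Fdft1 at 0.040. Quantile normalization put Cyp51 at 0.077 and also moved Hmgcs1 to -0.21, Idi1 to -0.19, Fdft1 to -0.19 and Lss to 0.33, none of them called. With 1 array left out Sqle ranged from -0.040 to 0.31 and Dhcr7 from -0.36 to 0.0030. Of the other named or listed genes 110 of 1187 such values changed sign, and 1 passed, that of Rnps1 without positive replicate 3. Detection calls were not used here, so signals near the background, such as the dim Fdft1 probe sets, limit what can be said.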
